A study of Mus musculus with 4 samples.

Results

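The JAK kinases and STAT factors examined here are Jak1, Jak2, Jak3 and Tyk2 among the kinases and Stat2, Stat3, Stat5a, Stat5b and Stat6 among the factors. They were taken as every probe set whose platform annotation gave 1 of these symbols, or an older alias, and no other gene. This gave 9 genes and 20 probe sets, 8 of kinases and 12 of factors, of 18193 genes and 45101 probe sets measured. Each probe set combines several short probes, and a gene is represented by its brightest probe set over the arrays. For Jak3, Stat3, Stat5a and Stat5b that probe set is of a type shared between transcripts. All 9 genes lay above the floor, set at 52.9 intensity units, on all 4 arrays. Of the 20 probe sets, 16 did so and 4 did not. Another 2 probe sets were annotated with Jak3 and the neighbouring gene Insl3 together and were kept apart.

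JAK kinases sit on the inner tails of cytokine receptors and phosphorylate one another, the receptor and a STAT protein when a cytokine binds. Phosphorylated STAT proteins pair, enter the nucleus and activate genes, among them genes of the SOCS family that shut the kinases down again. In macrophages this pathway carries the signals of interferons, IL-6, IL-10, GM-CSF and IL-4, and the cytokines that macrophages release after contact with bacteria act back on them through it.

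Macrophages grown from C57BL/6 bone marrow for 5 days, with 10% L929 supernatant as the source of macrophage colony-stimulating factor, were wild type (WT) or lacked both Hes1 and Hey1 (DKO). Hes1 and Hey1 encode transcriptional repressors that act downstream of Notch. Cells of each genotype were untreated or given 2 ng/ml lipopolysaccharide (LPS), a bacterial ligand of Toll-like receptor 4, for 3 h, to find inflammatory genes that Hes1 and Hey1 regulate. The 4 groups had 1 array each, so no difference below has a replicate check, an error or a test, and the number of arrays limits the precision. How the 2 genes were deleted, in which cells, and how many mice gave marrow are not stated in the labels.

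Each array's intensities had a trimmed mean of 500.0, and the array medians were 59.1 (WT, untreated) and 50.8 to 51.0 (the other 3). Hes1 gave 45.4, 26.7, 2.14 and 5.80 units on the arrays of WT untreated, WT with LPS, DKO untreated and DKO with LPS, all under the floor, and Hey1 exceeded it on the untreated WT array alone, at 57.2. The genotype labels are thus only weakly checked. Of 10 listed macrophage markers, 9 were matched and all 9 lay above the floor on every array, with a summed level of 85903 to 135761 units. Of markers of other cells, 2 of 6 for T and NK cells (summed 179 to 254), 1 of 5 for B cells, 1 of 6 for granulocytes (354 to 583) and 0 of 5 for both dendritic cells and fibroblasts passed the floor on any array. The granulocyte marker was S100a8, well above the floor at 463, 465, 284 and 333 units in the same order and lower on both DKO arrays. In RNA from whole cultures, fewer cells of a type and less RNA per cell cannot be told apart.

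Among the 9 genes, Jak2 stood out with LPS. It was 3.05-fold higher with LPS in WT cells and 5.31-fold higher in DKO cells, and it was the only one past 2-fold in either genotype. The other genes stayed within 1.76-fold of their untreated level. A difference is called higher or lower here where 2 arrays differed by at least 2-fold. By that measure 1 of 9 genes was higher and 0 were lower with LPS in WT cells, where 3.36% of 11491 genes were higher and 3.41% lower. In DKO cells the count was again 1 higher and 0 lower, against 4.66% and 4.77% of 11241 genes. The median log2 difference of the 9 genes was 0.05 in WT and -0.10 in DKO cells, beside -0.086 and -0.103 over all genes. Between genotypes, 0 of 9 genes were past 2-fold in either direction. The background was 0.466% higher and 0.984% lower of 11380 genes in untreated cells, and 0.845% and 0.934% of 11236 genes with LPS. The 2 LPS comparisons use different arrays, while each genotype comparison shares an array with each of them.

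**Figure D1:**
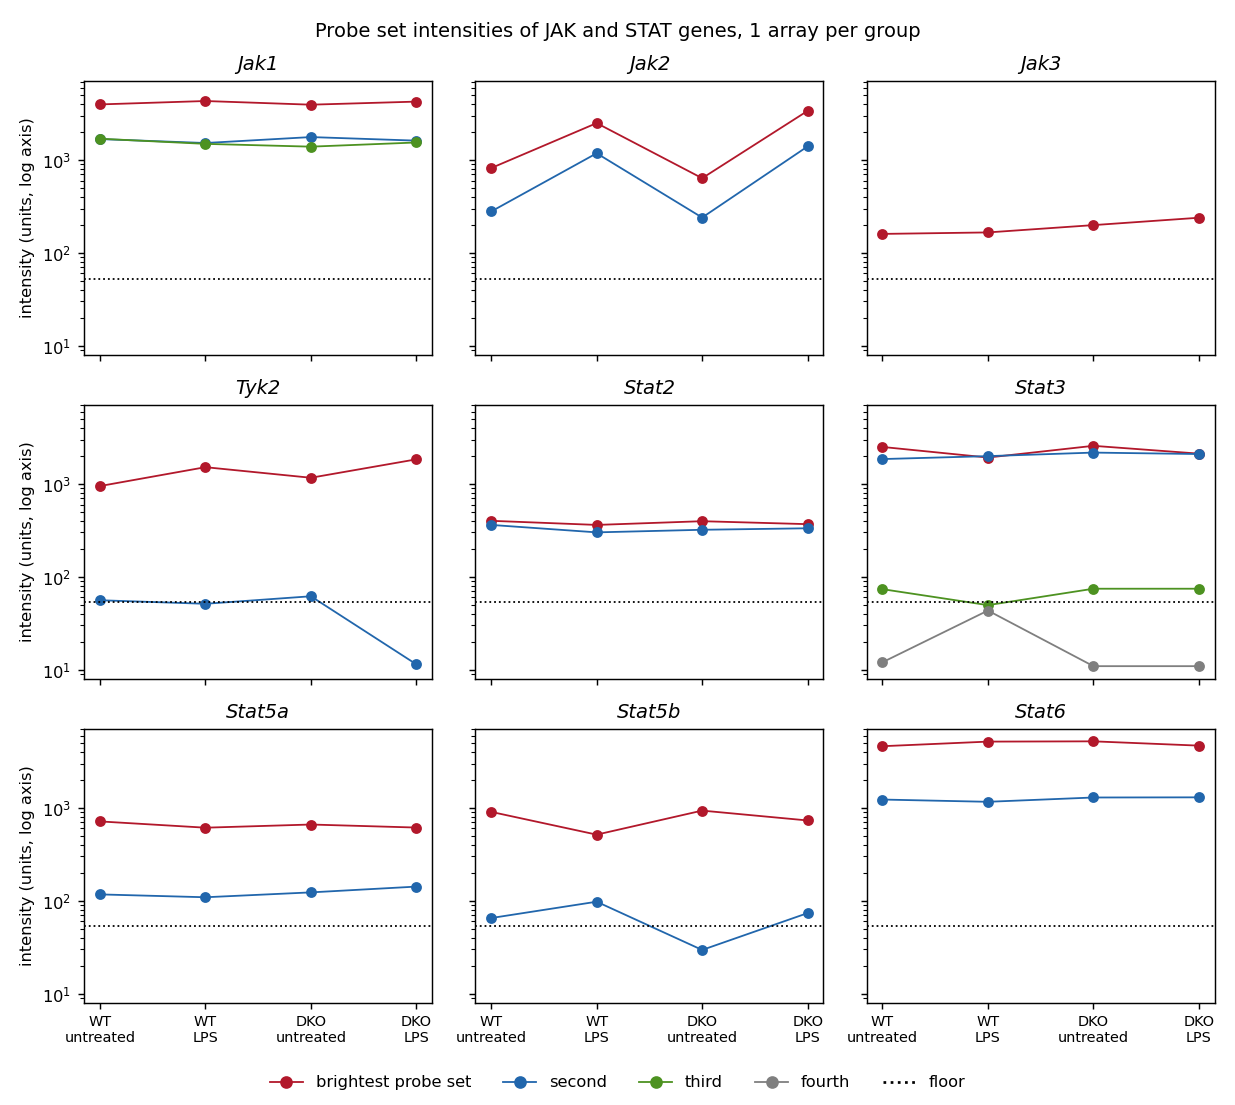
Intensity of every JAK and STAT probe set (vertical axis, units, log scale) on the 4 arrays (horizontal axis), 1 panel per gene, with lines joining the values of 1 probe set and a dotted line at the floor of 52.9 units. Both Jak2 probe sets are high on the 2 LPS arrays, while the brightest probe sets of Jak1, Stat2, Stat5a and Stat6 are nearly level.

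Jak2, on chromosome 19, encodes the kinase used by the receptors for GM-CSF, interferon gamma and many hormones. Its brighter probe set gave 819 units without and 2498 with LPS in WT cells, and 637 without and 3385 with LPS in DKO cells. Both LPS arrays were far above both untreated arrays, with the DKO array highest with LPS and lowest without it. The log2 difference with LPS was 1.61 in WT cells, rank 185 from the top of 11491 genes, and 2.41 in DKO cells, rank 130 of 11241. The other Jak2 probe set read 279, 1182, 240 and 1402 units in the same order of arrays. It showed the same ordering, with LPS differences of 4.23-fold and 5.85-fold.

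The effect of LPS on Jak2 was thus larger in the DKO pair of arrays, by a log2 difference of 0.80 (1.74-fold). That is short of the 2-fold threshold, which 1.31% of 9982 genes passed upward and 0.721% downward, and 0 of 9 members passed. By rank it was 244 of 9982, and 2.44% of genes had a difference at least as high. The dimmer Jak2 probe set gave 0.47 for the same quantity, and array scalings gave 0.59 to 0.82 for the brighter one. Taken apart, the brighter probe set was 1.28-fold lower in untreated DKO than in untreated WT cells and 1.36-fold higher in DKO cells with LPS. Neither genotype difference reached 1.5-fold.

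The stretch upstream of Jak2 is shown because it belongs to the 1 gene past 2-fold. With it are shown those of Stat2 and Jak1, as examples with motif matches, which Jak3 and Stat5a also have. Each is the 250 bases before the gene's start in RefSeq, build GRCm38.p6, read 5′ to 3′ on the gene's strand, with matches in capitals. Jak2 lies at chr19:29251553-29251802 on the + strand, Stat2 at chr10:128270248-128270497 on the + strand and Jak1 at chr4:101265224-101265473 on the - strand.
Jak2: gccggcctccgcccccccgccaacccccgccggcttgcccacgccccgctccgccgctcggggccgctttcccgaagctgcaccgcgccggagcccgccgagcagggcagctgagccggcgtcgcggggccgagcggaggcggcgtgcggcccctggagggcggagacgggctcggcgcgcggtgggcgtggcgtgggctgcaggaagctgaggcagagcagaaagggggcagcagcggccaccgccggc
Stat2: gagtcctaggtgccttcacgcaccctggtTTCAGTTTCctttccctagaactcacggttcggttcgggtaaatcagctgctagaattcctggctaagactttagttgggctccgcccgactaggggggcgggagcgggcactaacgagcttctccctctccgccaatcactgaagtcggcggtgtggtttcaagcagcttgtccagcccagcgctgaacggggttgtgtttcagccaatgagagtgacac
Jak1: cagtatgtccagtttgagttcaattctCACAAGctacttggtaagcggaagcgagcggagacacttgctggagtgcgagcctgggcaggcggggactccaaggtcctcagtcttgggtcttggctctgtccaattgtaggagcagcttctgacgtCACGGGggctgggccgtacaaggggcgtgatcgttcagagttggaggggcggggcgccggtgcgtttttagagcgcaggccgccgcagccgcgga

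Motifs were searched on both strands in the 11 such windows of the 9 genes and in 32851 windows of all genes. The HES and HEY class C site, CACGNG, occurred in 1 of 9 genes, Jak1, at 95 to 90 bases before the start, and in 23.5% of all windows. The N-box, CACNAG, was found upstream of Jak1 (223 to 218 bases before the start) and Stat5a, and in 36.7% of all windows. The core of the interferon-stimulated response element, GAAANNGAA, to which the complex of STAT2, another STAT and IRF9 binds, was in Stat2 (221 to 213 bases before the start) and Jak3, against 7.13% of windows. The STAT motif TTCNNNGAA was in 0 of 9 genes (7.02% of windows), and the NF-kB consensus motif in 1, Stat5a (7.25%). The Jak2 window held no match to any of the 5 motifs. It was rich in G and C, at 80.8% against a median of 52.4% over all windows, with 37 CpG dinucleotides.

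Tyk2, on chromosome 9, encodes the kinase paired with JAK1 at the interferon alpha receptor and with JAK2 at the IL-12 receptor. It read 949, 1516, 1166 and 1842 units in WT untreated, WT with LPS, DKO untreated and DKO with LPS. Both LPS arrays were above both untreated arrays, and within each treatment the DKO array was higher. LPS gave nearly equal differences in both genotypes, 1.60-fold in WT and 1.58-fold in DKO cells, and the genotype differences were 1.23-fold and 1.22-fold. The other Tyk2 probe set was at the floor, with 55.9, 51.2, 61.7 and 11.4 units, and gives no second reading.

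Jak1, on chromosome 4, serves the interferon and IL-6 receptors and encodes a kinase present in most cells. Its brightest probe set gave 3971, 4321, 3945 and 4258 units in the same order, a span of 1.10-fold. The other 2 probe sets spanned 1.16-fold and 1.22-fold and read slightly lower with LPS in WT cells (log2 differences of -0.14 and -0.18, against 0.12 for the brightest). All 3 were nearly level.

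Jak3, on chromosome 8, encodes the kinase tied to the common gamma chain, a receptor subunit best known from lymphocytes. Its single probe set gave 160, 166, 199 and 239 units. Both DKO arrays were above both WT arrays, by 1.24-fold without and 1.44-fold with LPS, the latter a log2 difference of 0.52 that 4.87% of genes equalled or exceeded. A probe set shared with Insl3 read 218, 232, 205 and 187 units. It went the other way between genotypes with LPS (-0.31). The T cell markers Cd3e, Cd3d and Cd3g were under the floor on all arrays, while Cd2 gave 114, 70.9, 122 and 80.9 units and the summed T and NK cell markers 254, 179, 211 and 193, and their part in the Jak3 values was not tested.

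**Figure D2:**
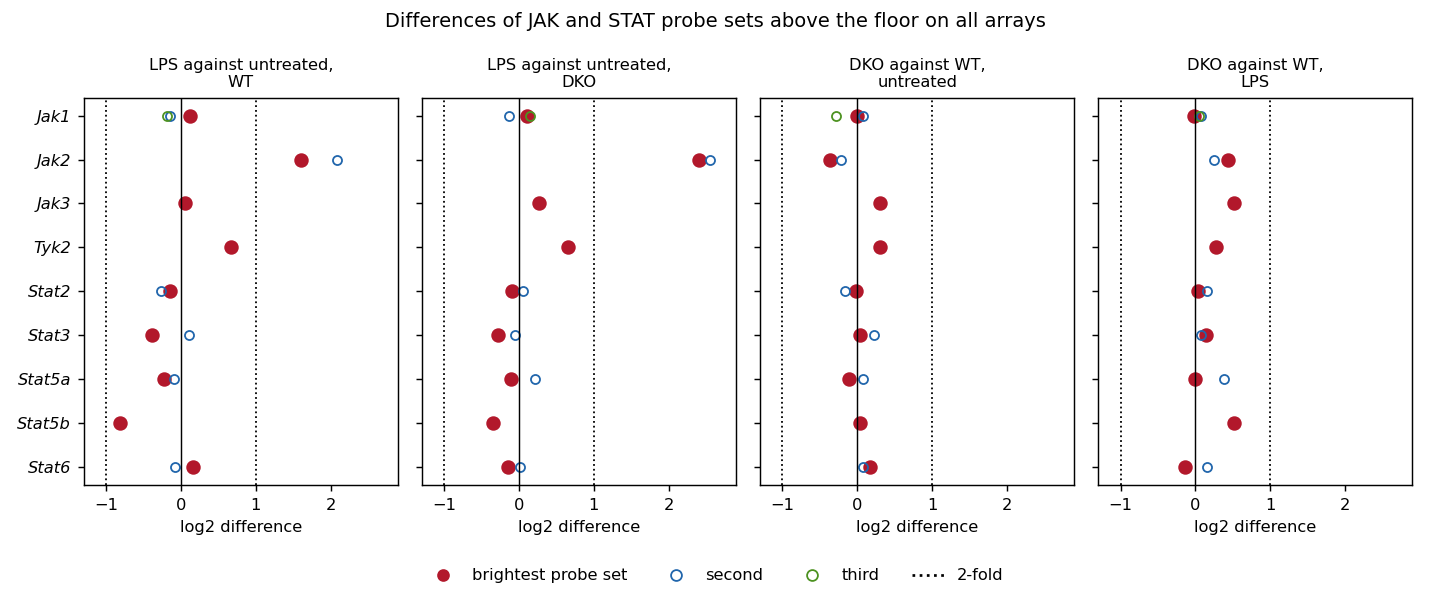
Log2 difference (horizontal axis) of each JAK and STAT probe set that passed the floor on all 4 arrays, by gene (vertical axis), in 4 panels for the LPS effect in WT and DKO cells and for DKO against WT without and with LPS. Filled points are a gene's brightest probe set, open points its others, and dotted lines mark 2-fold. Only Jak2 points lie beyond a dotted line.

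Of the STAT factors, Stat5b differed most with LPS. Stat5b, on chromosome 11, encodes a factor activated by GM-CSF, other cytokines and growth hormone. Its brighter probe set gave 906, 515, 935 and 732 units in WT untreated, WT with LPS, DKO untreated and DKO with LPS. Both LPS arrays were below both untreated arrays, and the WT array with LPS was lowest. With LPS the level was 1.76-fold lower in WT cells and 1.28-fold lower in DKO cells, and DKO cells with LPS were 1.42-fold above WT cells with LPS. The difference between the LPS effects was 0.46 on the log2 scale, which 7.95% of genes equalled or exceeded. The dimmer Stat5b probe set, at 65.1, 97.6, 29.5 and 73.6 units, went the other way with LPS, by 0.58 in WT and at least 0.48 in DKO cells. Taking the median of the probe sets brought the LPS difference in WT cells from -0.81 to -0.12 and turned that in DKO cells to 0.48.

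Stat5a and Stat3 are the next protein-coding genes after Stat5b on chromosome 11, so the 3 stand side by side. Stat5a, the close relative of Stat5b, gave 715, 612, 662 and 614 units. Its LPS differences were -0.22 in WT and -0.11 in DKO cells, smaller than those of Stat5b. Its other probe set gave 117, 109, 123 and 142 units, nearly level but highest in DKO cells with LPS.

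Stat3 encodes the factor that carries IL-6 and IL-10 signals in macrophages. Its 2 bright probe sets did not show the same change. The brightest gave 2504, 1926, 2575 and 2121 units, lower with LPS in both genotypes (-0.38 and -0.28). The second gave 1854, 1994, 2177 and 2100 units, with LPS differences of 0.11 and -0.05. The gap of 0.48 between their LPS differences in WT cells was the largest among the 6 members with a second probe set above the floor everywhere, whose median gap was 0.25, beside 0.26 over 4709 such genes. The third probe set gave 73.6, 49.5, 74.4 and 74.4 units and crossed the floor, and the fourth was under the floor on all arrays, at 10.9 to 43.3 units.

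Stat2 and Stat6 were nearly level. Stat2, on chromosome 10, encodes the factor that joins IRF9 in response to type I interferon, and its probe sets gave 401, 362, 397 and 369 units and 362, 301, 321 and 333 units. Its brighter probe set spanned 1.11-fold over the 4 arrays, and its sign with LPS in WT cells (-0.15) flipped under 3 array scalings, to between 0.01 and 0.07. Stat6, on the same chromosome, encodes the factor activated by IL-4 and IL-13. Its brighter probe set gave 4617, 5175, 5210 and 4684 units and its dimmer one 1230, 1163, 1294 and 1299 units, spans of 1.13-fold and 1.12-fold. For the brighter probe set neither the genotypes nor the treatments separated the arrays.

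With a threshold of 1.5-fold, 2 of 9 genes were higher with LPS in WT cells, Jak2 and Tyk2, where 6.93% of genes were higher, and 1 was lower, Stat5b, where 12.9% were lower. In DKO cells the same 2 were higher (background 8.94%) and 0 were lower (14.5%). With LPS, 7 of 9 members were above WT in DKO cells, against 43.4% of all genes, and the median over members was 0.14 beside -0.040. The 7 include Stat5a (log2 difference 0.00) and Stat2 (0.03), where the sign says little. Without LPS 5 of 9 were above WT, against 47.0%, with a median of 0.04 beside -0.017. The 5 likewise include Stat3 and Stat5b, both at 0.04. Ordered over the 4 arrays, only Jak2 had a step of 1.5-fold between neighbouring levels, the 3.05-fold step between its untreated WT and WT LPS arrays. The other 8 genes had none, so neighbouring levels in their order are not told apart by that measure. The 4 arrays spanned at least 2-fold for 1 of 9 members, against 14.6% of genes above the floor on all arrays, and at least 1.5-fold for 3 of 9, against 38.6%.

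**Figure D3:**
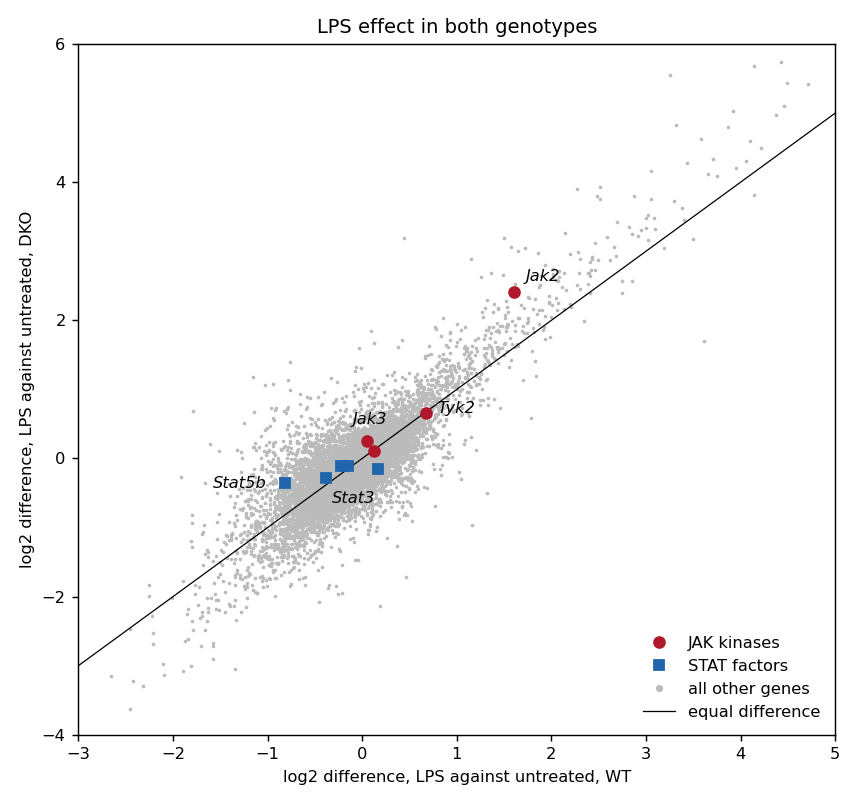
Log2 difference with LPS in WT cells (horizontal axis) against that in DKO cells (vertical axis) for 9977 of the 9982 genes above the floor on all arrays, with 5 outside the axes, JAK kinases as circles and STAT factors as squares. The line marks equal differences. Jak2 lies above the line at 1.61 and 2.41, Tyk2 lies on it, and Stat5b lies above it at -0.81 and -0.35.

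The 3 genes nearest to Jak2 in pattern over the 4 arrays, by the distance between their centred log2 levels among 9981 genes, were Ampd3 (0.139), Rbpj (0.140) and Nupr1 (0.198). Rbpj, which encodes the DNA-binding factor of the Notch pathway, gave 1970, 6304, 1645 and 7702 units. Ampd3, an AMP deaminase gene, gave 1875, 5366, 1566 and 7631, and Nupr1, a stress-induced gene, 582, 2123, 500 and 2804. The other Rbpj probe sets gave log2 differences with LPS in WT cells of 1.95 and 0.71, beside 1.68 for the one shown. The 3 genes were picked by likeness to Jak2. Sharing its highest array, DKO with LPS, and its lowest, untreated DKO, thus follows from that choice. Over 4 arrays such likeness is a description only.

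Around the JAK and STAT genes, 8 lists covered the rest of the pathway, with 167 genes matched and 12 of them in more than 1 list. The counts below stand beside 3.36% of all genes higher and 3.41% lower with LPS in WT cells, and 4.66% and 4.77% in DKO cells, and call nothing particular to a list. Of receptor chains that bind JAKs, 0 were higher and 2 lower of 22 compared in WT cells with LPS, and 2 were higher and 2 lower of 21 in DKO cells. Il6ra, the IL-6 receptor chain, was lower in both, from 2032 to 689 units in WT and from 2319 to 596 in DKO cells. Its other probe set gave log2 differences of -1.22 in WT but -0.51 in DKO cells, the latter short of 2-fold. Ifngr1, a chain of the interferon gamma receptor that signals through JAK1 and JAK2, read 1806, 3117, 1552 and 3900 units in the usual order of arrays. With array medians set equal, 3 receptor chains counted as higher in WT cells.

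Of 25 matched cytokines that signal through JAKs, 14 in WT and 13 in DKO cells were under the floor on both arrays and were not compared. Of the rest, 4 of 11 were higher with LPS in WT and 5 of 12 in DKO cells, and 0 were lower. Over all genes 3.36% and 4.66% were higher. A gene under the floor without LPS was compared only where its LPS array passed the floor, so it could only read higher. Il6 went from 6.97 to 1291 units in WT and from 1.57 to 2501 in DKO cells, Il12b from 23.3 to 375 and from 1.45 to 971, and Csf2, which encodes GM-CSF, from 7.93 to 149 and from 4.12 to 233. Without LPS all 3 lay under the floor in both genotypes. Il12b was the 1 cytokine of 12 past 2-fold between genotypes with LPS (log2 difference 1.37).

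Inhibitors of JAK-STAT signalling were higher in 1 and lower in 2 of 23 members with LPS in WT cells, and higher in 3 and lower in 1 in DKO cells. The 3 in DKO cells were Socs1, Socs3 and Cish. Socs1 was under the floor without LPS in both genotypes, so it could only read higher. In DKO cells this also held for Socs3 and Socs2. Socs3, which blocks JAKs at the IL-6 receptor, gave 196, 5341, 38.6 and 6288 units. On this probe set it was under the floor in untreated DKO cells, and the 1 inhibitor of 22 past 2-fold between genotypes there. That call rests on 1 of 3 Socs3 probe sets: another read 146 units in untreated WT and 81.9 in untreated DKO cells (-0.84), and the last was under the floor in both. Cish, a STAT5-induced inhibitor, gave 153, 260, 95.0 and 356 units. Its LPS effects differed by 1.14, the 1 inhibitor of 20 past 2-fold on that measure (0 with array medians set equal). The 2 inhibitors lower in WT cells were Socs6 (-1.05) and Pias3 (-1.01), and neither value stayed past 2-fold under the 3 array scalings. The other probe sets of Socs6 gave larger differences, -2.42 (from 1108 to 207 units) and a drop to under the floor from 140 units, whereas the other of Pias3 gave -0.54. Of 16 partners and adaptors, 0 passed in WT cells and 2 were lower in DKO cells, Jun (-1.61, and -1.88 on its other probe set) and Ncoa3 (-1.31, but -0.67 on its other probe set). With the median over probe sets 1 of them counted as lower.

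The last 4 lists hold genes taken as targets of the STAT factors, many of which also answer to other factors. The counts of these lists are to be read against the same shares of all genes, 3.36% and 3.41% in WT and 4.66% and 4.77% in DKO cells. Of 20 STAT3 targets, 7 were higher and 1 lower with LPS in WT and 8 higher and 0 lower in DKO cells. Hp and Lcn2 among them were under the floor without LPS in both genotypes, so they could only read higher. In DKO cells this also held for Socs3. Of 13 STAT5 targets, 3 were higher and 1 lower in WT and 4 higher and 0 lower in DKO cells. These counts overlap, since Socs3 and Pim1 are on both lists and were higher in both genotypes. Socs3 and the STAT5 target Cish are also among the inhibitors above. Pim1, a kinase gene, gave 1009, 3859, 733 and 5105 units. Of 23 matched STAT6 targets, 10 were under the floor on every array and not compared, among them Arg1, Retnla and Chil3. Of the other 13, 4 were higher and 2 lower in WT and 5 higher and 3 lower in DKO cells. Ccl17, Ccl22 and Socs1 were under the floor without LPS, so they could only read higher. The measured differences were highest in both genotypes for Ch25h, from 92.0 to 1703 units in WT and from 104 to 2337 in DKO cells. They were lowest in both for Klf4, from 3227 to 921 and from 2447 to 305. Its other probe set gave -0.94 in WT cells, short of 2-fold, and -2.41 in DKO cells. Between genotypes with LPS, 2 of 13 STAT6 targets were lower in DKO cells, Klf4 (-1.59) and Ccl22 (-1.06), and 0 were higher. Over all genes 0.934% were lower and 0.845% higher.

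Of 28 targets of the STAT2-IRF9 complex, 4 were higher and 0 lower with LPS in WT cells and 6 higher and 0 lower in DKO cells, while Stat2 itself was level. Between genotypes 26 of 28 read above WT in DKO cells both without and with LPS, with medians of 0.28 and 0.24, and array scalings gave 23 to 27 of 28. Over all genes 47.0% and 43.4% read above WT, with medians of -0.017 and -0.040. Macrophage markers moved the same way, with 9 of 9 above WT in untreated DKO cells (median 0.30) and 6 of 9 with LPS (0.08), and their part in the difference of the targets was not tested. Only Mx2, an interferon-induced GTPase gene, was past 2-fold in either, at 21.5, 94.2, 116 and 368 units. Its untreated WT level was under the floor, so the difference without LPS is a bound. With equal array medians or quantile scaling, 2 of 28 targets were past 2-fold without LPS. Rsad2, an antiviral gene, gave 3738, 12111, 3783 and 14229 units, higher with LPS in both genotypes and close between them.

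**Figure D4:**
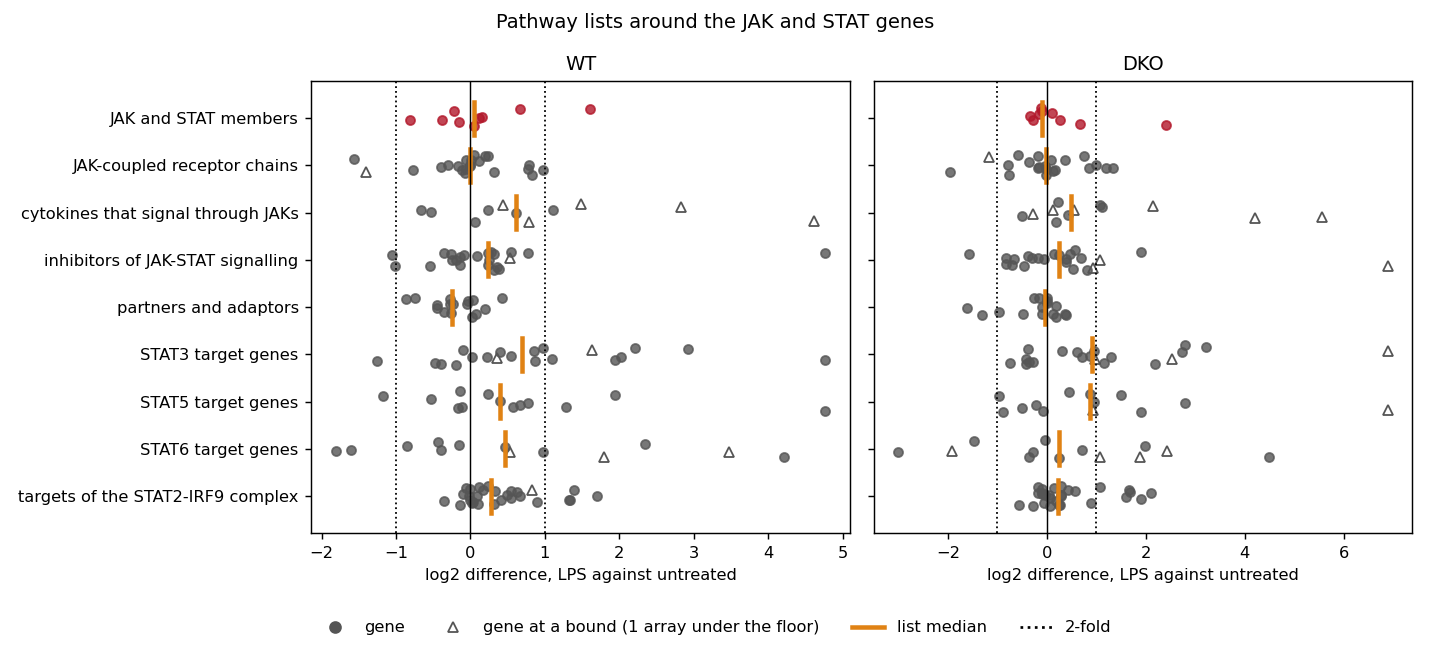
Log2 difference with LPS (horizontal axis) in WT (left) and DKO cells (right) for the 9 JAK and STAT genes and 8 pathway lists (vertical axis). Each point is a gene, triangles are bounds where 1 array was under the floor, orange bars are list medians and dotted lines mark 2-fold. The JAK and STAT genes have 1 point past 2-fold, Jak2, and the STAT3 targets have 8 in WT and 8 in DKO cells.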

How the data were processed

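RNA of 4 cultures was hybridised to Affymetrix mouse arrays, 1 per group, after amplification and biotin labelling, per the labels' protocols. The deposited values are intensities on a linear scale, 1 for every probe set on every array, and each array's mean after trimming 2% at either end was 500.0. The summarising tool is not given in the sources used. Scaling to a trimmed mean fixes bright signal and leaves dim probe sets free.

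The 64 control probe sets were left out. Symbols came from the platform annotation, updated through a RefSeq table of assembly GRCm38.p6. A gene took its probe set with the highest mean. The floor was the pooled median of all non-control probe sets, 52.9 units, and lower values were raised to it before taking log2, so a difference with 1 array under it is a bound, and one with both under it was not computed. Differences were read at 2-fold, without tests, and the calculation was tested on simulated data. The difference of LPS effects used genes above the floor on all arrays.

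All probe sets of each member were reported. The rule for named genes also took, per list and comparison, up to 6 genes past 2-fold or otherwise the 2 largest differences, of which the text names some, and the 3 genes nearest in pattern to each member spanning 2-fold. The members, lists and motifs were chosen with earlier results of these data known. Alternatives tried were thresholds of 1.5-fold and 3-fold, leaving out probe sets shared between transcripts, the median over probe sets of 1 gene, an offset of 16 units without a floor, other floors, and 3 array scalings (cyclic loess with limma 3.58.1, quantile, and equal medians). The second brightest probe set was added after seeing the data. Python 3.11.15 with numpy 2.4.6 and pandas 2.3.3 was used.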

Additional observations from a re-analysis of the deposited data

Results flagged for a closer look

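Of 16 member probe sets above the floor on every array, 6 moved in opposite directions with LPS in the single WT and DKO pairs. The difference between the genotypes was not tested in any of them. The share of all probe sets with opposite signs was not computed, so the count is not particular to these genes. Some of the effects were as small as 0.01, 0.05 or -0.05, where the sign says little. For the brightest Stat6 probe set the LPS effect was 0.16 in WT and -0.15 in DKO cells, a difference of -0.32 on the log2 scale. The second Stat6 probe set gave the opposite sign for that difference, 0.09, from -0.08 in WT and 0.01 in DKO cells. The second Stat2 probe set gave a difference of 0.32 (-0.27 in WT, 0.05 in DKO cells), the third Jak1 probe set 0.33 (-0.18 and 0.15), the second Stat5a probe set 0.30 (-0.09 and 0.21) and the second Stat3 probe set -0.16 (0.11 and -0.05). Over 4709 genes, the brightest probe sets of a gene differed by a median of 0.27 on this measure.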

How the results depend on the processing

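With 1 array per group no array could be left out. No paired analysis was possible because each group has a single array and the labels carry no replicate numbers. Jak2 stayed the 1 member past 2-fold with LPS in both genotypes under the 3 array scalings, both other floors, the offset, both probe set rules, the 3-fold threshold and the second brightest probe set. At 1.5-fold, 3 members passed with LPS in WT cells, 2 in DKO cells and 1, Jak2, for the difference of LPS effects. With the median over probe sets of 1 gene, 1 member passed for the difference of LPS effects, Tyk2 (-1.17), through its dim probe set, which read 11.4 units in DKO cells with LPS. That rule also turned Tyk2 to -0.89 for LPS in DKO cells and to -0.95 for DKO against WT with LPS. The 0 of 9 members past 2-fold between genotypes stayed 0 under all alternatives.

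Of 45 member differences, 26 kept their sign under all alternatives set out at the start and 19 did not, 15 of these under 0.2 in size. For Jak2 the ranges were 1.59 to 1.85 for LPS in WT cells, 2.38 to 2.49 in DKO cells, -0.36 to -0.15 and 0.34 to 0.47 for the genotypes without and with LPS, and 0.59 to 0.82 for the difference of LPS effects. Equal array medians moved the median of all genes by 0.207 for LPS in WT cells, 0.210 for the genotypes untreated and -0.209 for the difference of LPS effects. Stat5a, Stat5b and Jak3 were not compared with shared probe sets left out. Values under the floor, which 4 member probe sets have on at least 1 array, have no order between arrays.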
